A study of Mus musculus with 2 samples.

Results

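The genes of the visual cycle and of retinol handling described here are Rpe65, Lrat, Rlbp1, Rdh5, Rdh11, Rdh10, Rgr, Stra6 and Ttr, 9 of the 32285 genes counted. They were chosen by function and found by gene symbol, and all 9 were detected. Their unique molecular identifiers (UMIs, tags that each mark 1 captured RNA molecule) were counted in 1526 retinal pigment epithelium (RPE) cells of 20180 control cells kept and in 1630 RPE cells of 15426 doxorubicin (Dox) cells kept.

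The visual cycle is the loop of reactions by which the RPE returns bleached retinoid to photoreceptors in its light-sensitive form. Retinol enters the RPE from the blood through STRA6, the receptor for retinol-binding protein, which circulates bound to transthyretin, the product of Ttr. LRAT stores retinol as an ester, RPE65 turns the ester into cis-retinol, retinol dehydrogenases oxidize cis-retinol to cis-retinal, CRALBP (Rlbp1) carries the cis forms, and RGR is an opsin of the RPE that binds retinal.

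Both groups were male C57BL/6J mice 3 months of age whose eyes received 1 µl under the retina. Eyes of control RPE received PBS, and eyes of Dox-RPE received Dox, a drug that damages DNA, at 100 ng/µl. The paper states that Dox injected in this way affects only a part of the RPE area. Dox-RPE therefore includes cells that Dox may not have reached. At 7 days, RPE, choroid and sclera were dissociated with papain, dead cells were removed, and 10 eyes of 5 mice were pooled into 1 library per group. Library, injection and treatment therefore cannot be told apart, no test between the groups was possible, and each interval given is a 95% interval that covers counting error only.

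The libraries held 20381 control and 15649 Dox cells as deposited, of which 441 cell barcodes occurred in both, and kept cells had a median of 4495 and 4995 UMIs. Levels are given as UMIs of a gene per 1000000 UMIs of a group of cells (CPM). Each UMI stands for 1 molecule read from its 5′ end, so levels of different genes were compared on this molecule scale with no division by length.

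Promoters of 4 of the genes are shown because their values, seen before the choice, moved differently between classes of RPE cells. In a class of Dox-RPE, Rpe65 and Rgr were far below main cells but Rdh5 was near them. In another class, Rdh5, Rgr and Rlbp1 were below main cells but Rpe65 was near them, in part through the limit on Rpe65 given below. Each sequence is the RefSeq window on GRCm38.p6 from 250 bases before to 50 bases after a start site, written along the gene's own strand. Capitals mark TAATCC or its reverse complement GGATTA, letters that OTX-type homeodomain proteins bind. The windows are chr3:159598931-159599230 on the plus strand for Rpe65 and, on the minus strand, chr14:37048965-37049264 for Rgr, chr10:128919248-128919547 for Rdh5 and chr7:79386978-79387277 for Rlbp1.
Rpe65: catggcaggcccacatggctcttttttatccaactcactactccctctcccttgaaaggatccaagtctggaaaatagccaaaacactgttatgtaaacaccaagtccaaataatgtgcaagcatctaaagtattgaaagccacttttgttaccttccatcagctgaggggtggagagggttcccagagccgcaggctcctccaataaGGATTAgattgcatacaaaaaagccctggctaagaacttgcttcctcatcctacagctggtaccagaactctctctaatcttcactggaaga
Rgr: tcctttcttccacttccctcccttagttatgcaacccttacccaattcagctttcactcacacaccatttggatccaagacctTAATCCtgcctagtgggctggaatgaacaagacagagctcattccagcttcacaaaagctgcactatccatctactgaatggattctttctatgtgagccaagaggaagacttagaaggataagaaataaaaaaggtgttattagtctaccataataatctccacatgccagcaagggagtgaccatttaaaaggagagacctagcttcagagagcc
Rdh5: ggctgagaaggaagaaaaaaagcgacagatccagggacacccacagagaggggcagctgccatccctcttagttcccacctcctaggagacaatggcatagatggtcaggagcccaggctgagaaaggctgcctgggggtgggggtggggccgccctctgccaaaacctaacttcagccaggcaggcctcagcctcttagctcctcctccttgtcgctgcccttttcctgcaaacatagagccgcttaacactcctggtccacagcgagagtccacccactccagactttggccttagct
Rlbp1: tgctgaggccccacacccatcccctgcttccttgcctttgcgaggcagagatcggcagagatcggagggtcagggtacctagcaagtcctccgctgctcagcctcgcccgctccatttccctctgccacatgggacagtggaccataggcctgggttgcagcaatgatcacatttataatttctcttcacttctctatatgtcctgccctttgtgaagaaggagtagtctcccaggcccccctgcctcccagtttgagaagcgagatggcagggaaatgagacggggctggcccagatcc
The match in Rpe65 began 42 bases before the start site and that in Rgr 167 bases before it. The windows of Rdh5, Rlbp1, Lrat, Rdh11 and Stra6 held no match on either strand. Windows were found for 7 of the 9 genes. Of all 32851 windows of 300 bases, 7.06% held a match, and such a match of letters does not show a bound site.

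RPE cells were taken as cells with at least 10 Rpe65 UMIs, so the level of Rpe65 in them is in part set by that limit. Of these cells, 1331 control and 1411 Dox cells lay in the RPE-like cluster of a clustering of all cells, which was led by Mt3, Nrn1l, Rd3l, Gm15222 and Rdh5. Most of the others lay in an unnamed cluster led by Snhg7os (89 and 106 cells), the melanocyte-like cluster (71 and 43 cells) and the larger fibroblast-like cluster (16 and 53 cells). RPE markers outside the 9 genes summed to 5042 in control and 5458 CPM in Dox in main RPE cells, so the label of these cells was kept. In other groups of cells they summed to 208 to 724 CPM in control and 306 to 1843 CPM in Dox. All of them were detected in main RPE cells, but also in fibroblast-like cells. Best1 had only 13 and 17 UMIs in main RPE cells. Markers of rod photoreceptors summed to 2.39 CPM and 3.18 CPM in main RPE cells. Just below the limit, at 8 or 9 Rpe65 UMIs, were 83 control and 116 Dox cells with Rgr at 2361 and 3504 CPM, and just above it, at 10 or 11 UMIs, were 66 and 81 cells with Rgr at 4263 and 3276 CPM.

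RPE cells were divided into 3 classes by a pair of genes outside the 9. Serpina3n encodes a secreted inhibitor of serine proteases, and cells with at least 1000 CPM of it are called Serpina3n-high. Malat1 is a long noncoding RNA retained in the nucleus, and cells with at least 50000 CPM of it are called Malat1-rich, whatever their Serpina3n. The rest are called main RPE cells.

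Main cells numbered 1358 in control and 1227 in Dox. Serpina3n-high cells made up 0.983% (0.551 to 1.62) of control RPE, which is 15 cells, and 11.8% (10.3 to 13.4) of Dox-RPE, which is 192 cells. Malat1-rich cells made up 10.0% (8.56 to 11.6) of control RPE and 12.9% (11.4 to 14.7) of Dox-RPE, or 153 and 211 cells, and 16 of the Dox cells also held 1000 CPM of Serpina3n or more. The classes differed in depth. Main cells had a median of 17597 UMIs in control and 19075 in Dox, Serpina3n-high cells 33954 and 28882.5, and Malat1-rich cells 4117 and 5025.

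In main RPE cells the 9 genes spanned more than 1000-fold in level and held 10.0% of all UMIs in control and 10.5% in Dox. Ttr, the carrier of thyroxine and of retinol-binding protein, was at 71349 in control and 74339 CPM in Dox and so made up most of that share. Rgr followed at 12210 and 12951 CPM, then Rdh5, a cis-retinol dehydrogenase of the RPE, at 6122 and 6754 CPM. Rpe65, the isomerase, was at 5006 (4978 to 5034) in control and 5540 (5511 to 5570) CPM in Dox.

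Rlbp1 stood at 2737 and 2848 CPM and Lrat at 1274 and 1238 CPM. Stra6 and Rdh10 were the closest neighbours in the order. Stra6 was at 814 (803 to 825) in control and 891 (879 to 903) CPM in Dox, and Rdh10, a retinol dehydrogenase also used to make retinoic acid, at 763 (752 to 773) and 820 (809 to 831) CPM, so that their counting intervals did not overlap in either library. Rdh11, a retinol dehydrogenase of many tissues, was the lowest at 56.3 (53.4 to 59.4) in control and 58.5 (55.5 to 61.6) CPM in Dox. No Rdh11 UMI was found in 42.9% and 37.6% of main cells, against 3.24% and 3.18% for Rdh10 and 1.47% and 1.87% for Lrat. The order of the 9 genes was the same in both libraries.

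Single main cells varied around these levels. The middle 50% of main cells lay between 3385 and 6376 CPM for Rpe65 in control and between 3900 and 6741 CPM in Dox, with medians of 4930 and 5408 CPM. For Ttr it lay between 49467 and 85959 CPM in control and between 52276 and 86249 CPM in Dox.

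Some of these genes share ground with neighbours in GENCODE vM21 on GRCm38, and how UMIs in those stretches were counted was not checked. Rdh5 on chromosome 10 from 128913593 to 128922888 overlaps Bloc1s1 on the same strand. Stra6 on chromosome 9 from 58063788 to 58153996 overlaps Gm16131 on the same strand and Ccdc33 on the opposite strand, and Lrat on chromosome 3 from 82892579 to 82903973 overlaps Rbm46os on the opposite strand. Rpe65, on chromosome 3 from 159599175 to 159625321, and the other 5 genes overlap no annotated gene.

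**Figure D1:**
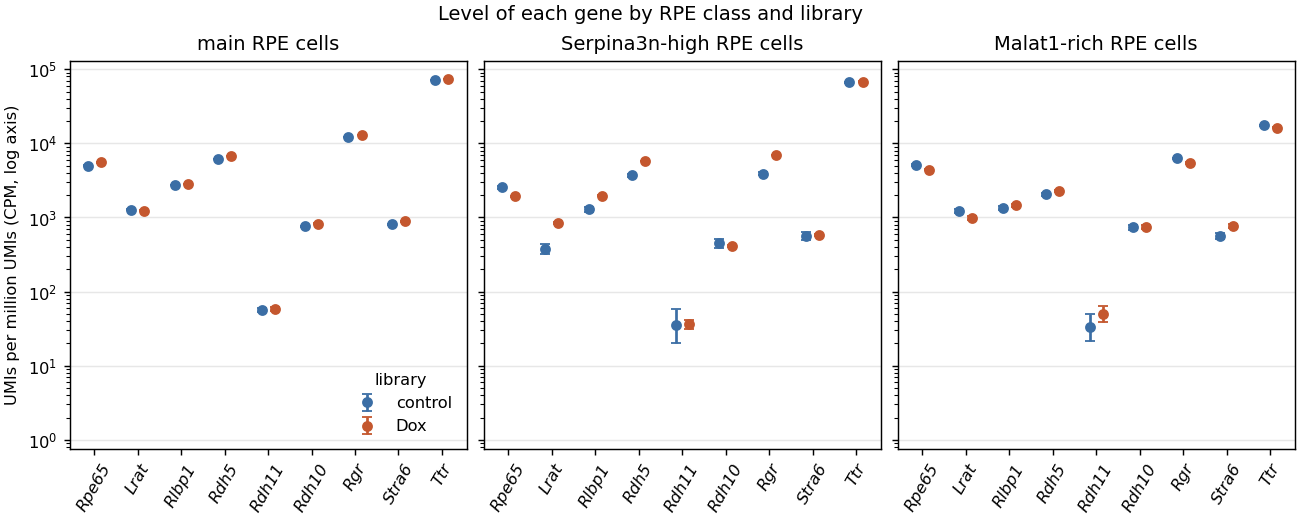
Level of each of the 9 genes in main, Serpina3n-high and Malat1-rich RPE cells, in CPM on a log axis, for the control and the Dox library, with bars for the 95% Poisson interval of the counts. The libraries lie close together in main cells, while among Serpina3n-high cells Lrat stands at 378 in control and 835 CPM in Dox, and Ttr is lowest in Malat1-rich cells, at 17424 and 16343 CPM.

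The first comparison asked whether the genes of the cycle stood at other levels in Dox-RPE than in control RPE. Cells that Dox reached could not be told from those it did not, so the ratios are not those of exposed cells alone. Over all RPE cells, 0 of 9 genes were lower in Dox by 0.5 or more on the log2 scale, where 6.33% of 12774 genes were, and 0 of 9 were higher by that much, where 2.24% were. The log2 ratios of Dox over control ran from -0.12 (-0.14 to -0.10) for Lrat, at 1257 in control and 1158 CPM in Dox, to 0.10 (0.09 to 0.11) for Rdh5, at 5965 and 6402 CPM. Rpe65 was at 4966 in control and 4867 CPM in Dox, which gives a log2 ratio of -0.03 (-0.04 to -0.02).

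In main cells alone again 0 of 9 genes passed 0.5 in either direction, where 5.48% of 12464 genes were lower and 1.34% higher. The log2 ratio was 0.15 (0.14 to 0.16) for Rpe65, 0.14 (0.13 to 0.15) for Rdh5 and 0.13 (0.10 to 0.16) for Stra6. Lrat, at -0.04 (-0.06 to -0.02), was the only one of the 9 below 0. Rpe65 thus stood slightly lower in Dox over all RPE cells and slightly higher in Dox among main cells, and the share of Serpina3n-high cells differed between the libraries as given above.

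**Figure D2:**
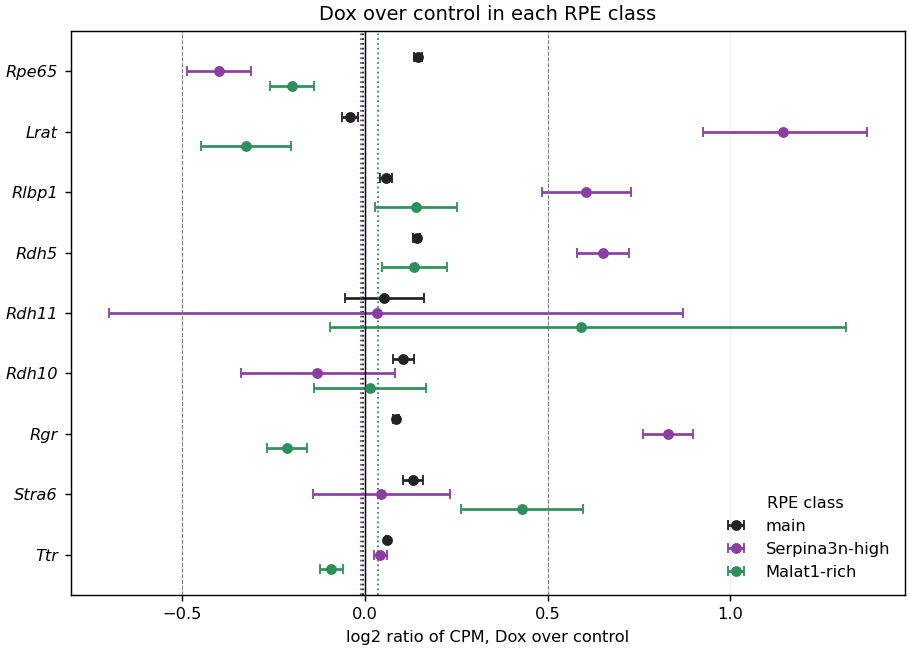
Log2 ratio of CPM, Dox over control, of each of the 9 genes in main, Serpina3n-high and Malat1-rich RPE cells, with 95% intervals of counting error as bars, the limits at 0.5 either way dashed and the median of all genes dotted. In main cells all points lie between -0.04 and 0.15, and in Serpina3n-high cells Lrat, Rgr, Rdh5 and Rlbp1 lie to the right of 0.5 while Rpe65 lies at -0.40.

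Most of the 9 genes were at lower levels in Serpina3n-high than in main cells of the same library. In Dox, 7 of 9 genes, all but Rdh5 and Ttr, were lower by 0.5 or more on the log2 scale, where 23.2% of 11469 genes were. In control, 8 of 9 genes, all but Ttr, were, where 31.8% of 11460 genes were. None of the 9 was higher by that much in either library, where 5.98% of genes in Dox and 14.3% in control were. The median of all genes was itself at -0.17 in Dox and -0.16 in control. Relative to that median, 4 of 9 genes in Dox (Rpe65, Rdh10, Rgr and Rdh11) and 7 of 9 in control were lower by 0.5 or more, where 15.6% and 25.8% of genes were.

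Rpe65 was at 2544 (2399 to 2695) CPM in Serpina3n-high control cells and 1928 (1891 to 1966) CPM in Serpina3n-high Dox cells. Against main cells, this was a log2 ratio of -0.98 (-1.06 to -0.89) in control and -1.52 (-1.55 to -1.49) in Dox. Rpe65 was therefore lower in both libraries, although each cell counted had to hold at least 10 Rpe65 UMIs, and only 3.14% of genes in Dox had a lower ratio. With all cells of the RPE-like cluster and no limit on Rpe65, the ratios were -1.09 and -1.60. The middle 50% of Serpina3n-high Dox cells, from 1274 to 2631 CPM, lay wholly below that of main Dox cells.

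Rgr was at 3909 CPM in Serpina3n-high control cells and 6945 CPM in Serpina3n-high Dox cells, with log2 ratios to main cells of -1.64 (-1.71 to -1.58) and -0.90 (-0.91 to -0.88). Lrat, which esterifies retinol, was at 378 (323 to 439) CPM and 835 (811 to 859) CPM, with ratios of -1.75 (-1.98 to -1.54) and -0.57 (-0.61 to -0.52). For both genes the difference from main cells was larger in control than in Dox, the reverse of Rpe65.

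Rlbp1, which carries cis retinoids, was at 1294 in control and 1969 CPM in Dox, with ratios of -1.08 (-1.20 to -0.96) and -0.53 (-0.56 to -0.50). Rdh5, which oxidizes cis-retinol, was at 3693 and 5797 CPM, with ratios of -0.73 (-0.80 to -0.66) and -0.22 (-0.24 to -0.20). In Dox, Rdh5 thus lay close to the median of all genes, and its level was 0.858 times that in main cells where the level of Rpe65 was 0.348 times.

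Rdh10 was at 451 in control and 411 CPM in Dox, with ratios of -0.76 (-0.97 to -0.56) and -0.995 (-1.06 to -0.93). Stra6, which takes up retinol, was at 563 and 580 CPM, with ratios of -0.53 (-0.71 to -0.35) and -0.62 (-0.67 to -0.56). Rdh11 rested on 16 UMIs in Serpina3n-high control cells, where its ratio of -0.67 (-1.48 to 0.03) had an interval that held 0, and was at -0.69 (-0.92 to -0.48) in Dox.

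Ttr was at 66274 CPM in Serpina3n-high control cells and 68235 CPM in Serpina3n-high Dox cells, with ratios of -0.11 (-0.12 to -0.09) and -0.12 (-0.13 to -0.12). Its direction turned when ratios were taken relative to the median of all genes, to 0.05 in both libraries. Of the RPE markers outside the 9 genes, 3 of 8 tested were lower by 0.5 or more in control and 1 of 8, the keratin gene Krt8, in Dox. Their median log2 ratio was -0.45 in control and -0.27 in Dox, against -0.76 and -0.62 for the 9 genes.

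Markers listed for other cell types moved in both directions with this class. Fibroblast markers summed to 1273 CPM in main and 1440 CPM in Serpina3n-high control cells, with Dpt, Kera and Tnmd at 0 of 13 in the latter, and to 833 and 330 CPM in Dox, with Dpt and Kera at 0. Melanocyte markers, 9 of 9 detected, summed to 2776 and 3997 CPM in control and to 1796 and 1902 CPM in Dox. That list holds pigment genes such as Pmel, which the paper also reports in RPE cells, so its sum need not come from melanocytes. It also summed to 3303 CPM in NK or T-like and 1867 CPM in fibroblast-like control cells, and to 710 and 553 CPM in those of Dox. How much of the sum in RPE cells was free RNA was not tested. Macrophage markers summed to 390 and 148 CPM in control and to 205 and 111 CPM in Dox, with Adgre1 and Cx3cr1 at 0 in Serpina3n-high cells of both libraries. Cells with the highest doublet scores made up 26.7% of Serpina3n-high cells in control and 3.13% in Dox, and without them the ratio of Rpe65 was -0.95 and -1.56. The part of these markers in the result was not tested.

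**Figure D3:**
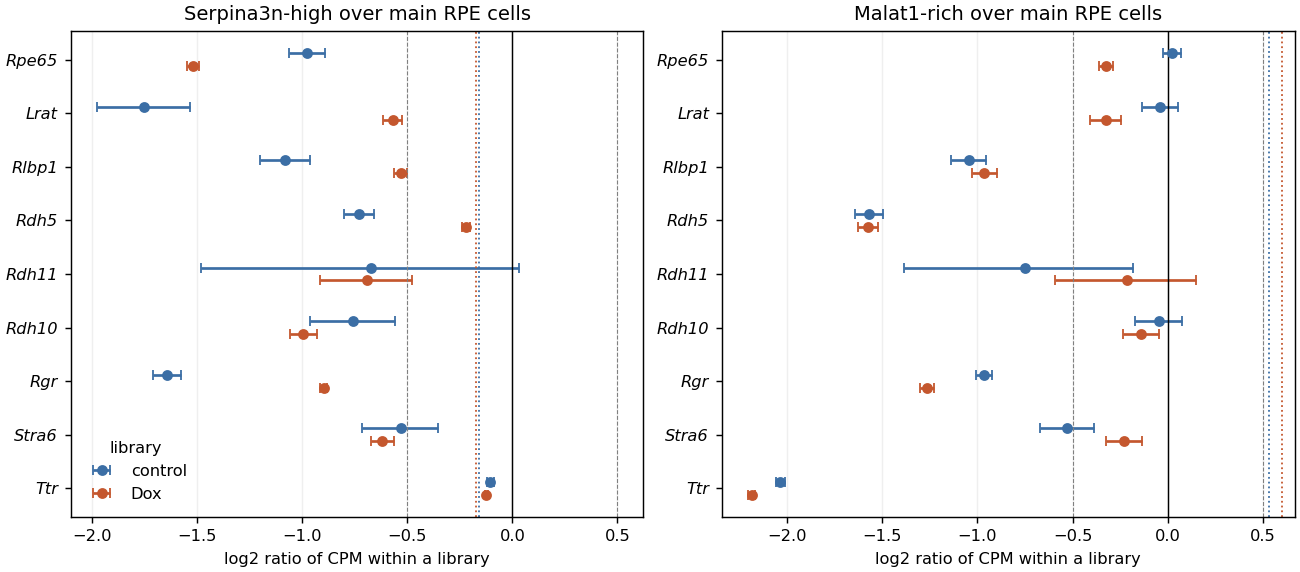
Log2 ratio of CPM of each of the 9 genes in Serpina3n-high and in Malat1-rich over main RPE cells, within the control and within the Dox library, with 95% intervals of counting error as bars, the limits at 0.5 either way dashed and the median of all genes dotted. Over Serpina3n-high cells Rpe65 in Dox lies at -1.52 and Ttr near the dotted medians, and over Malat1-rich cells Ttr lies below -2.0 in both libraries while Rpe65, Lrat and Rdh10 lie between -0.33 and 0.02.

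Cells were also grouped by their level of Serpina3n. Among Dox cells under the Malat1 limit, Rpe65 was at 5844 CPM in the 670 cells with no Serpina3n UMI, 5712 CPM in 323 cells with up to 100 CPM of Serpina3n and 3917 CPM in 234 cells with 100 to 1000 CPM. It was at 2341 CPM in 91 cells with 1000 to 5000 CPM and 1610 CPM in 101 cells with 5000 CPM or more. Rpe65 was thus lower in each group of cells with more Serpina3n. The median depth of these groups did not follow the same order, at 18276, 24100, 9800.5, 28066 and 29611 UMIs per cell. A single Serpina3n UMI gives a higher CPM in a cell of low depth, so the groups with little Serpina3n are in part set by depth. Serpina3n was also found outside the RPE. In Dox it was at 91.8 CPM in cells led by Ighv1-55, the lowest, 135 CPM in fibroblast-like and 658 CPM in melanocyte-like cells. In control it was at 16.9 CPM in smooth muscle-like to 101 CPM in Schwann-like cells. Low levels of Serpina3n therefore need not be RNA of the RPE cell itself, which was not tested.

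Over the same groups of Dox cells Rgr was at 13508, 13620, 9088, 7372 and 6616 CPM and Rdh10 at 869, 759, 782, 465 and 370 CPM, each lowest in the last group though not lower at every step. Rdh5 was not lowest there. It was at 6918, 7076, 5303, 5701 and 5870 CPM over these groups, lowest in the group with the fewest UMIs per cell. Ttr likewise ran through 75561, 76697, 63641, 69362 and 67366 CPM.

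In control, Rpe65 was at 5211 CPM in 1153 cells with no Serpina3n UMI, 4847 CPM in 104 cells with up to 100 CPM, 3094 CPM in 101 cells with 100 to 1000 CPM and 2258 CPM in 13 cells with 1000 to 5000 CPM. The same cells with 100 to 1000 CPM, which count as main cells, held Lrat at 718 CPM against 1346 CPM in cells with no Serpina3n UMI, and Rgr at 7119 against 12777 CPM. Only 2 control cells had 5000 CPM or more, with Rpe65 at 4078 CPM, so no grade was read into that group.

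Just outside and just inside the limit in Dox, Rpe65 was at 3291 CPM in 40 cells with 500 to 1000 CPM of Serpina3n and 2514 CPM in 30 cells with 1000 to 2000 CPM, and Rgr at 7614 and 6390 CPM. In control, with 18 and 7 cells on either side, Rpe65 was at 2117 and 2064 CPM, Rgr at 4944 and 3603 CPM and Lrat at 421 and 283 CPM.

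**Figure D4:**
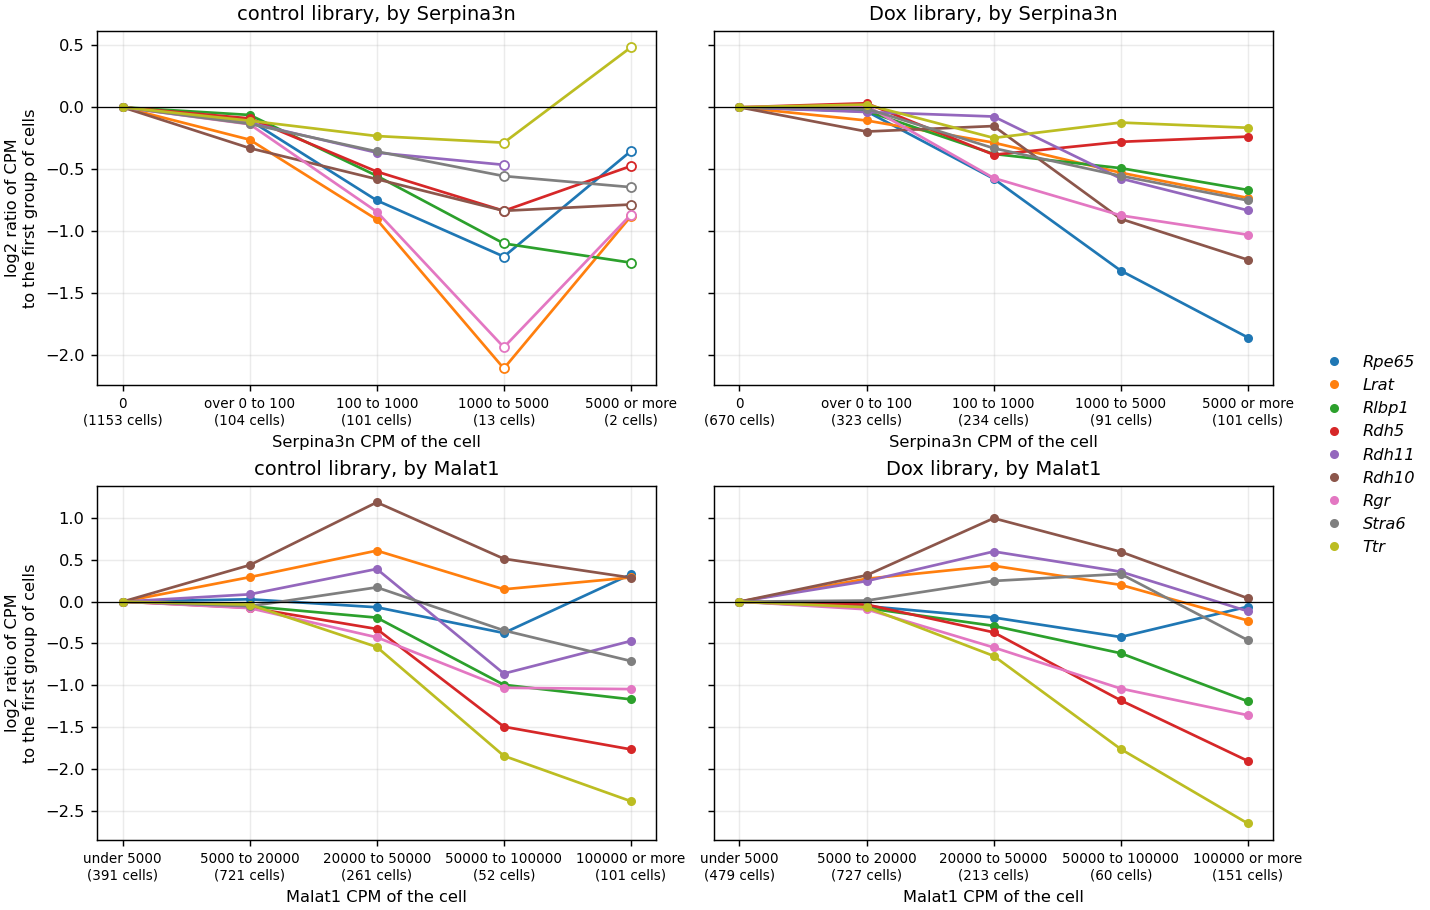
Log2 ratio of CPM of each gene to its level in the first group of cells, for cells grouped by Serpina3n CPM (under the Malat1 limit) or by Malat1 CPM, in the control and the Dox library, with open points for groups under 20 cells. In Dox the line of Rpe65 goes down from 5844 CPM to 1610 CPM with Serpina3n while those of Rdh5 and Ttr end closest to 0, and with Malat1 the line of Ttr goes down to 12328 CPM while Rdh10 is highest in cells with 20000 to 50000 CPM of Malat1.

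Between the libraries, levels in Serpina3n-high cells lay apart for several genes. Of the 9 genes, 4 were higher in Dox by 0.5 or more, where 18.1% of 7497 genes were, and 0 were lower, where 15.6% were. The log2 ratio of Dox over control was 1.14 (0.92 to 1.37) for Lrat, 0.83 (0.76 to 0.90) for Rgr, 0.65 (0.58 to 0.72) for Rdh5 and 0.61 (0.49 to 0.73) for Rlbp1. For Rpe65 it was -0.40 (-0.49 to -0.31). These ratios rest on 15 control cells, in which Rpe65 had a middle 50% from 1521 to 3600 CPM and Lrat from 224 to 473 CPM. Without the 4 control cells and 6 Dox cells of highest doublet scores the ratio of Rpe65 was -0.53, and with a Serpina3n limit of 2000 CPM, which left 8 control cells, it was -0.75 and that of Lrat 0.76.

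Malat1-rich cells showed another pattern, in which Ttr and Rdh5 were far lower than in main cells. Rpe65 was not far lower, but in these cells of low depth its level is in part set by the limit on Rpe65 UMIs. The median of all genes was itself at 0.53 in control and 0.60 in Dox. As measured, 6 of 9 genes in control and 4 of 9 in Dox were lower by 0.5 or more, where 19.7% of 11554 and 18.8% of 11411 genes were, and 0 of 9 were higher, where 50.9% and 53.3% were. Relative to the median of all genes, 9 of 9 genes were lower by 0.5 or more in each library, where 33.4% and 34.3% of genes were.

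Ttr was at 17424 (17126 to 17726) CPM in Malat1-rich control cells and 16343 (16123 to 16565) CPM in Malat1-rich Dox cells, with log2 ratios to main cells of -2.03 (-2.06 to -2.01) and -2.19 (-2.21 to -2.17). Rdh5 was at 2065 and 2267 CPM, with ratios of -1.57 (-1.64 to -1.50) and -1.57 (-1.63 to -1.52). Only 1.87% of genes in control and 1.20% in Dox had a lower ratio than Ttr.

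Rlbp1 was at 1325 in control and 1460 CPM in Dox, with ratios of -1.05 (-1.14 to -0.96) and -0.96 (-1.03 to -0.90). Rgr was at 6249 and 5389 CPM, with ratios of -0.97 (-1.01 to -0.92) and -1.26 (-1.30 to -1.23). The direction of these 4 genes, Ttr, Rdh5, Rlbp1 and Rgr, was the same in both libraries and under each of the 18 other settings tried.

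Rpe65 was at 5081 (4920 to 5245) CPM in Malat1-rich control cells and 4422 (4308 to 4538) CPM in Malat1-rich Dox cells, with ratios of 0.02 (-0.03 to 0.07) and -0.33 (-0.36 to -0.29). With a limit of 10 UMIs, cells of low depth enter only when their Rpe65 is high, and with no limit on Rpe65 in the RPE-like cluster the ratios were -0.24 and -0.41. Lrat, at 1237 and 987 CPM, had ratios of -0.04 (-0.14 to 0.05) and -0.33 (-0.41 to -0.25), and Rdh10, at 737 and 743 CPM, of -0.05 (-0.17 to 0.07) and -0.14 (-0.24 to -0.05). The sign of Rpe65 and Lrat in control and of Rdh10 in both libraries changed with the setting.

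Stra6 was at 564 in control and 760 CPM in Dox, with ratios of -0.53 (-0.67 to -0.39) and -0.23 (-0.32 to -0.14). Rdh11 had 25 UMIs in control and 65 in Dox, with ratios of -0.75 (-1.38 to -0.18) and -0.21 (-0.59 to 0.15). In Dox the sign of both genes changed with the setting as well.

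Of the Malat1-rich cells, 70 in control and 109 in Dox lay in the RPE-like cluster. Within that cluster the ratio of Ttr to main cells was -1.69 in control and -1.97 in Dox, and that of Rdh5 was -1.21 and -1.35. Lrat stood at 0.37 and -0.05 there and Rdh10 at 0.34 and 0.11. When Malat1 and mitochondrial genes were left out of the totals, Ttr was at -1.77 and -1.92 and Rpe65 at 0.28 and -0.06. Of the RPE markers outside the 9 genes, 3 of 8 were higher by 0.5 or more and 2 lower in control, and 2 of 8 were higher and 1 lower in Dox. Their median log2 ratio was 0.01 in control and 0.06 in Dox, also below the median of all genes. The imino acid transporter gene Slc6a20a was at 0.79 and 0.96 and the keratin gene Krt8 at -1.13 and -0.86.

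Other readouts moved with Malat1-rich cells. Mitochondrial genes took 6.60% of their UMIs in control and 6.08% in Dox, against 2.65% and 2.70% in main cells. Fibroblast markers summed to 2636 in control and 1505 CPM in Dox, melanocyte markers to 4722 and 2543 CPM and macrophage markers to 683 and 240 CPM, each above main cells of the same library, with Dpt and Kera at 0 among fibroblast markers. Their part in the result was not tested, and the melanocyte list again includes pigment genes also found in the RPE.

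Grouped by Malat1, Ttr in control was at 75157 CPM in 391 cells under 5000 CPM of Malat1, 73370 CPM in 721 cells with 5000 to 20000 CPM and 51628 CPM in 261 cells with 20000 to 50000 CPM. It was at 20926 CPM in 52 cells with 50000 to 100000 CPM and 14364 CPM in 101 cells above that. In Dox it ran through 77561, 74032, 49463, 22842 and 12328 CPM, so that Ttr was lower in each group with more Malat1 in both libraries. The median depth went from 22345 to 3136 UMIs per cell in control and from 24337 to 4165 in Dox over the same groups.

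Rdh10, Lrat and Rdh11 were highest in cells of intermediate Malat1 in both libraries, and Stra6 was in control. Rdh10 rose from 560 CPM in the first group of control cells to 1276 CPM in cells with 20000 to 50000 CPM of Malat1 and was at 683 CPM in the last group. In Dox it was at 613, 1224 and 630 CPM in the same groups. Lrat was also highest in that middle group, at 1615 in control and 1374 CPM in Dox. Rdh11 was at 68.4 and 72.1 CPM there, and Stra6 was at 916 CPM in control. In Dox, Stra6 was highest in cells with 50000 to 100000 CPM of Malat1, at 1028 CPM. Around the limit, Ttr was at 38847 CPM in 120 control cells with 30000 to 50000 CPM of Malat1 and 26438 CPM in 25 cells with 50000 to 70000 CPM, and at 38124 and 28284 CPM in 98 and 31 Dox cells.

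Between the libraries, 1 of 9 genes in Malat1-rich cells, Rdh11, was higher in Dox by 0.5 or more, where 10.8% of 6081 genes were, and 0 were lower, where 9.26% were. Its log2 ratio of 0.59 (-0.10 to 1.32) had an interval that held 0. Stra6 stood at 0.43 (0.26 to 0.60), Lrat at -0.33 (-0.45 to -0.20), Rgr at -0.21 (-0.27 to -0.16) and Rpe65 at -0.20 (-0.26 to -0.14).

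A list of 20 other retinoid genes was measured beside the 9. In main cells, 14 had enough UMIs to compare. Rrh, an opsin of the RPE, was at 341 and 339 CPM and Abca4, a retinoid transporter better known from photoreceptors, at 152 and 163 CPM. Between the libraries 1 of 14 was higher in Dox, where 1.34% of all genes were, and 1 was lower, where 5.48% were. The higher one was Bco1, a carotene oxygenase with 19 UMIs in control and 42 in Dox. The lower one was Aldh1a2, a retinaldehyde dehydrogenase, with a log2 ratio of -0.62 (-0.86 to -0.38).

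Over Serpina3n-high cells, 12 of the list could be compared with main cells. In control 1 was higher and 3 were lower, where 14.3% and 31.8% of all genes were. In Dox 1 was higher and 4 were lower, where 5.98% and 23.2% of all genes were. The higher one was Rbp4 in both libraries, which encodes the retinol-binding protein that STRA6 receives, at 28.7 CPM against 6.25 CPM in control and 20.3 against 4.61 CPM in Dox. Its log2 ratio was 2.20 (1.26 to 3.02) from 13 UMIs in control and 2.14 (1.75 to 2.53) from 110 UMIs in Dox. Abca4 was lower in both, at -0.58 (-1.03 to -0.16) and -0.62 (-0.75 to -0.49). Rrh was at -1.14 (-1.50 to -0.80) in control and -0.10 (-0.18 to -0.03) in Dox, a split between libraries like that of Lrat and Rgr.

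Over Malat1-rich cells, 5 of 12 were higher and 3 lower in control, where 50.9% and 19.7% of all genes were. In Dox 5 were higher and 4 lower, where 53.3% and 18.8% of all genes were. Abca4 was higher, at 0.83 (0.62 to 1.04) and 0.89 (0.74 to 1.04), while the median of all genes was at 0.53 and 0.60.

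Each of the 9 genes was also found in every other group of cells. Droplet methods catch RNA set free by broken cells together with the RNA of each cell, so a low level outside the RPE need not come from the cells themselves. In the 9 other groups of cells, with all cells at 10 or more Rpe65 UMIs left out, Rpe65 was at 196 to 1408 CPM, which is 3.95% to 28.9% of its level in RPE cells of the same library. The level that RPE RNA alone would give was therefore scaled for each gene from Rpe65 in the same group. NK or T-like cells, which should not make Rpe65 or Ttr, had a median of 3702 and 3896 UMIs. In them Rpe65 was at 280 in control and 322 CPM in Dox and Ttr at 2987 and 4218 CPM.

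Over the 18 combinations of group and library, Rdh5 was at 0.613 to 0.928 times the scaled level, Ttr at 0.614 to 1.02, Rgr at 0.737 to 1.03 and Stra6 at 0.585 to 1.23 times. Rlbp1 was at 0.932 to 1.37, Lrat at 0.771 to 1.70 and Rdh10 at 1.24 to 2.12 times. The lowest values of Stra6 and Lrat rest on 6 and 11 UMIs in Schwann-like Dox cells. Rlbp1 was above the scaled level in 16 of 18, Lrat in 17 of 18 and Rdh10 in 18 of 18, where Rdh10 reached 2 times in 1. Rdh5 was above it in 0 of 18 and Ttr in 1 of 18. All groups of a library share its free RNA and the same RPE profile, so the 18 values of a gene are not independent. RPE cells also had to hold at least 10 Rpe65 UMIs and the other cells fewer. This can lower the level scaled from Rpe65 and so raise the ratio of each other gene, so a ratio above 1 need not mean RNA made by the cells. In fibroblast-like control cells Rdh10 was at 57.4 (55.5 to 59.4) CPM, where 29.8 CPM would be scaled from Rpe65.

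Rdh11 was at 2.07 to 7.47 times the scaled level, above 2 in 18 of 18. The highest value rests on 5 UMIs in Schwann-like Dox cells, and Schwann-like control cells held 3. In fibroblast-like cells, with 631 and 551 UMIs, it was at 10.6 (9.82 to 11.5) in control and 11.2 (10.3 to 12.2) CPM in Dox, where 2.18 and 3.01 CPM would be scaled from Rpe65. With at least 20 UMIs in both libraries, 1 of 9 genes, Rdh11, was at 2 times or more in 6 of the 9 groups and 0 in the other 3. With no limit on Rpe65 in the other cells, Rdh11 no longer passed this mark in melanocyte-like cells or in those led by Snhg7os. Nearly all genes pass this mark, 97.2% in fibroblast-like, 94.4% in melanocyte-like, 98.6% in smooth muscle-like, 98.4% in NK or T-like, 98.3% in endothelial-like and 98.0% in Schwann-like cells and 98.1%, 98.3% and 93.6% in those led by Cxcl10, Ighv1-55 and Snhg7os, so that passing it does not set Rdh11 apart.

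The share of UMIs from these genes in other cells differed between groups of cells and libraries. A share is not an amount per droplet and can be higher where cells hold few other UMIs. In Dox, Ttr had 58129 UMIs in 2020 melanocyte-like cells and 174664 UMIs in 8399 fibroblast-like cells. Whether these UMIs came from free RNA alone was not tested. Melanocyte-like cells had Ttr at 6640 in control and 20480 CPM in Dox, with a median of 1238.5 and 767 UMIs per cell, and their Rpe65 was at 10.3% and 28.9% of the RPE level. Their cluster was led by the red blood cell marker Hbb-bs, with 1 melanocyte marker, Pmel, among its leading genes. Melanocyte markers summed to 35792 in control and 24688 CPM in Dox there and red blood cell markers to 620 and 890 CPM, so this group need not hold melanocytes alone. In fibroblast-like cells, with 4763 and 5416 UMIs, Ttr was at 2206 and 3555 CPM and Rpe65 at 3.95% and 5.54% of the RPE level. Both were higher in the Dox library.

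**Figure D5:**
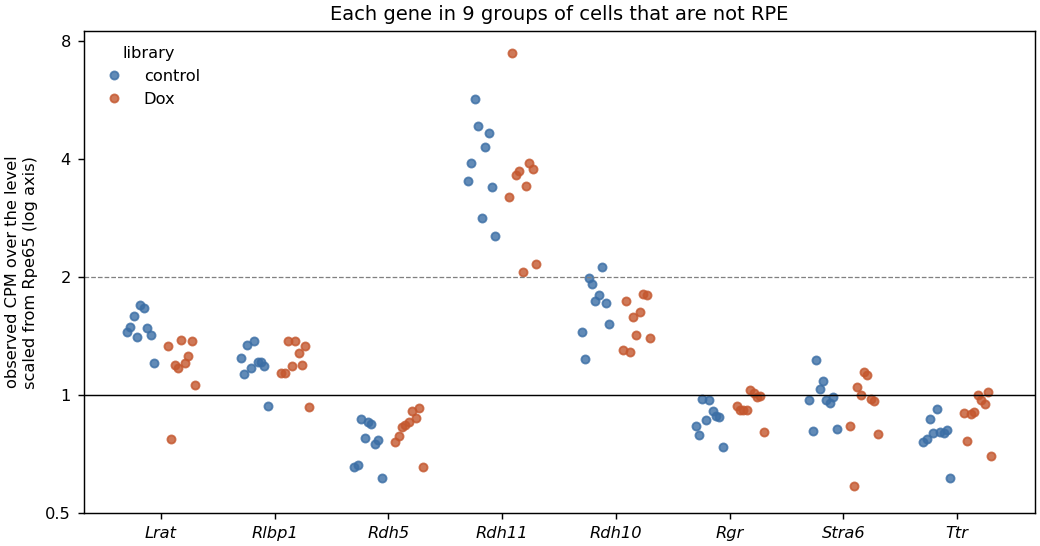
Observed level of 8 genes in each of 9 groups of cells outside the RPE, divided by the level scaled from Rpe65 in the same group and library, on a log axis, with 1 point per group and library and a dashed line at 2. Points of Rdh5, Ttr, Rgr and Stra6 lie near or below 1, and those of Rdh10 lie between 1.24 and 2.12. Those of Rdh11 lie above the line, from 2.07 to 7.47, the highest resting on 5 UMIs.

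Across the 24 combinations of RPE class or other group with library, the genes outside the 9 whose level was most like the summed level of the 9 were Pon1 (Pearson r of log2(CPM + 1) of 0.995), Cltrn (0.992), Arl6ip1 (0.990), Rsph10b (0.989) and Krt18 (0.987). Points of a library share its depth and free RNA, and the r is a description. Among the 9 themselves, r with their sum ran from 0.90 for Rdh11 to 0.997 for Rdh5, with Rpe65 at 0.95. Each of the 9 is part of that sum, most of which is Ttr, and RPE cells were set apart by Rpe65, so high values were built in.

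From cell to cell within main RPE, the 9 genes were related to unequal degrees. Over 1358 control cells, Pearson r of log2 levels was highest for Rgr with Ttr (0.74) and lowest for Rpe65 with Rdh11 (0.08). Over 1227 Dox cells it was highest for Rdh5 with Rgr (0.80) and again lowest for Rpe65 with Rdh11 (0.15). Rpe65 with Rgr stood at 0.63 in control and 0.67 in Dox and Rpe65 with Rdh5 at 0.48 and 0.59. Cells of a library share its depth and composition, and Rdh11 is sparse, so these values are given as a description.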

How the data were processed

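Gene counts per cell were made by the authors with Cell Ranger (4.0.0 in the file headers) on mm10, from 5′ single-cell libraries, and were deposited as UMI counts that had not been normalized. The 9 genes, the gene lists and the class limits were chosen with earlier results of these data known.

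Kept cells had more than 500 UMIs, between 200 and 6000 genes, log10 genes over log10 UMIs greater than 0.8 and less than 0.2 of UMIs from mitochondrial genes, and 56 control and 116 Dox cells with at least 10 Rpe65 UMIs were removed by these limits. Cells were clustered with Seurat 5.3.0 and sctransform 0.4.2 (R 4.3.3) on 3000 features and 40 components at resolution 0.1, and clusters were named from marker lists if 3 or more reached 10 CPM and 1 or more was a leading gene (the top 10 by fold). Scrublet (scanpy 1.11.5) called 1941 control and 0 Dox cells doublets, a call that did not work in Dox, so no cell was removed as a doublet. Leaving out the highest scores at the rate expected from loading, 3258 control and 1904 Dox cells, was an alternative.

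UMIs were summed per class and library in Python 3.11.15 (pandas 2.3.3, scipy 1.17.1, numpy 2.4.6), with figures from matplotlib 3.10.9. Intervals were exact Poisson for CPM, Clopper-Pearson for shares and exact conditional binomial for ratios, all at 95% and for counting error only. A gene was called higher or lower at a log2 ratio of 0.5 or more among genes with at least 50 UMIs over both groups, and past the free-RNA level at 2-fold with at least 20 UMIs in both libraries. Named genes were the 9, Serpina3n and Malat1, a list of 20 retinoid genes (counted, but not all reported by name here), the 5 genes most like the sum of the 9, leading genes of clusters and listed markers. The scripts were tested on simulated counts. Alternatives changed the cell filters, the RPE definition, class limits, doublets, totals, centring, depth (5000 UMIs per cell) and minimum of UMIs. One, the RPE-like cluster with no Rpe65 limit, was chosen after seeing the data.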

Additional observations from a re-analysis of the deposited data

Results flagged for a closer look

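For 4 of the genes the log2 ratio of Dox over control pointed in opposite directions in different classes of RPE cells with counting intervals that lay wholly on either side of 0, and the difference was not tested, since each class came from 1 library per group. Rpe65 stood at 0.15 in main cells, -0.40 in Serpina3n-high cells and -0.20 in Malat1-rich cells. Lrat stood at -0.0405 in main cells, 1.14 in Serpina3n-high cells and -0.33 in Malat1-rich cells. Rgr stood at 0.0850 in main cells, 0.83 in Serpina3n-high cells and -0.21 in Malat1-rich cells. Ttr stood at 0.0592, 0.0421 and -0.0924 in the same order. Serpina3n-high values rest on 15 control cells. Under other settings the Serpina3n-high ratio of Rpe65 ran from -0.75 to -0.03, that of Lrat from 0.76 to 1.39 and that of Rgr from 0.67 to 0.94, while that of Ttr changed sign, from -0.15 to 0.13. The Malat1-rich ratio of Ttr, its only negative one, also changed sign, from -0.26 to 0.087, so its opposite direction was not stable. That of Rpe65 ran from -0.36 to 0.009, while those of Lrat and Rgr kept their sign.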

How the results depend on the processing

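No paired analysis was possible because each group had 1 library, so the groups shared only 1 replicate number. Of the values that answer a comparison, 359 stayed within 1.5 times or within their interval under the other settings and 44 moved. Those that moved were class shares and counts of genes, which have no direction. Of the other values, 1147 stayed and 596 moved. Some ratios of single genes changed sign, such as Rdh10 in Malat1-rich over main control cells, which ran from -0.58 to 0.54. The cause was not tested. The Malat1-rich share in control, 10.0% as reported, was 8.11% with a mitochondrial share under 0.1, 11.97% at 5 or more Rpe65 UMIs, 6.41% at 20 or more, 5.26% within the RPE-like cluster, 6.25% in that cluster with no Rpe65 limit, 17.9% at a Malat1 limit of 30000 CPM and 6.62% at 100000 CPM. In Dox, 12.9% as reported, it was 10.9%, 7.63% at 20 or more, 7.73%, 8.23%, 19.0% and 9.26% under the same settings. The Serpina3n-high share in Dox was 13.8% with RPE cells taken by markers outside the 9 genes, 14.3% in the RPE-like cluster with no Rpe65 limit, 14.2% at a Serpina3n limit of 500 CPM and 9.94% at 2000 CPM, and in control 2.16% and 0.524% at those limits. The count of genes higher in Dox among Malat1-rich cells, 1 as reported, was 2 with a mitochondrial share under 0.1 or 20 Rpe65 UMIs and 0 with 5 Rpe65 UMIs, other RPE markers, the cluster with no Rpe65 limit, doublet scores left out, the mean of cell CPM, thinned cells, either other Malat1 limit or 200 UMIs per gene. The count lower there, 0 as reported, was 1 in the cluster with no Rpe65 limit and at 100000 CPM of Malat1. Among Serpina3n-high cells the count lower in Dox, 0 as reported, was 1 without the highest doublet scores and at 2000 CPM of Serpina3n. The count lower in Serpina3n-high than main cells was 4 in Dox at 5 Rpe65 UMIs or relative to the median of all genes, and 5 in control with thinned cells or at 2000 CPM. The count lower in Malat1-rich than main Dox cells was 9 relative to the median, and the count higher in control was 1 at 30000 CPM of Malat1. The count past the free-RNA level, 1 as reported, was 0 in melanocyte-like cells when scaled from Rlbp1, Rgr, Rdh5 and Lrat or with no Rpe65 limit, 0 in cells led by Snhg7os with no Rpe65 limit, and 0 in smooth muscle-like cells without the highest doublet scores. Thinning to 5000 UMIs left out 95 of 153 and 105 of 211 Malat1-rich cells, so depth limits that class most, and the 15 Serpina3n-high control cells limit every ratio that uses them.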
